A study of Homo sapiens with 12 samples.

Results

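The BCL2 family of apoptosis regulators was taken as 10 genes and all of their probes on the array: the antiapoptotic BCL2, BCL2L1 and MCL1, the effectors BAX and BAK1, and the BH3-only genes BCL2L11, BID, BAD, BBC3 and PMAIP1. A probe was kept where its detection score, which is 1 minus the detection p-value, was above 0.95 on at least 3 of the 12 arrays. Of 24 probes annotated to these genes 20 were kept, among the 22188 kept in all, and each of the 10 genes, of 12178 genes measured, had at least 1. The arrays held RNA of Tet21N cells, a human neuroblastoma line whose N-Myc transgene is shut off by doxycycline. The design had 4 groups of 3 arrays: MondoA siRNA with 1 microgram/ml doxycycline (Myc off), MondoA siRNA without it (Myc on), non-specific siRNA (siControl) with doxycycline, and siControl without it, each for 3 days. All groups therefore carried an siRNA and the transgene, doxycycline itself cannot be told apart from loss of N-Myc, and Tet21N is a derivative of 1 parental line. Each array read bulk RNA, so fewer expressing cells and less RNA per cell cannot be told apart.

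The family controls whether the outer mitochondrial membrane opens. BH3-only proteins switch on BAX and BAK1 or occupy the antiapoptotic members, and once BAX and BAK1 form pores, cytochrome c leaves the mitochondria and the apoptosome activates caspases. Myc proteins are known both for driving growth and for sensitising cells to apoptosis, and neuroblastoma cells are known to lean on BCL2 or MCL1 for survival. MondoA, encoded by MLXIP, is a nutrient-responsive relative of Myc, and both bind E-boxes with a partner protein.

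Between 18521 and 20726 probes were detected per array. The labels could not be checked on MLXIP, whose probe was detected on 1 of 12 arrays, or on MYCN, with 2 probes detected on 0. The MondoA target TXNIP was at 6.67 ± 0.10 (SD, n = 3) on the log2 scale in siMondoA cells with doxycycline, against 11.09 ± 0.14 in siControl cells with it, and at 7.96 ± 0.16 in siMondoA cells without doxycycline, against 11.31 ± 0.05 in siControl cells without it. All 6 mesenchymal neuroblastoma markers examined were detected, but of the adrenergic markers only HAND2, ISL1 and GATA3 were, while TH and DBH were detected on 0 arrays and PHOX2A on 1. The blood markers PTPRC and CD3E, the endothelial CDH5 and the epithelial CDH1 and KRT5 were detected on 0 arrays. Other markers of these lists were detected. The probes of the blood marker CD68 were detected on 12, 12 and 10 arrays, and those of the epithelial EPCAM on 4, 5 and 0. The endothelial PECAM1 was detected on 4 arrays and KDR on 1, and the blood marker HBB on 1. The labels do not state whether the replicates came from different cultures, and a p-value here covers the variation among these 12 samples only, some of which may be technical.

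Levels below are log2 normalized intensities of 1 probe and are not compared between probes. A change is the difference of 2 group means on that scale, with its standard error and limma's p-value adjusted over the 22188 probes, and it passes below 0.05.

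BAX, the pore-forming effector, changed furthest of the 20 probes when MondoA was depleted in doxycycline-treated cells, and its promoter window held 4 E-boxes. The 250 bases before its annotated start (GRCh38.p14, chr19:48954625-48954874, plus strand, upstream of the gene) are shown because they hold these 4 matches, at 138, 93, 45 and 14 bases before the start, with the E-box CACGTG in capitals:
BAX: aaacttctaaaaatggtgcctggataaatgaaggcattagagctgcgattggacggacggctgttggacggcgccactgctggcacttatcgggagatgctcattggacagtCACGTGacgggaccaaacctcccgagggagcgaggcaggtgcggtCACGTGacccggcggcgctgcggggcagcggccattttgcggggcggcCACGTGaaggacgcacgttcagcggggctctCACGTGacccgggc
CACGTG reads the same on both strands, and no match overlapped another. At least 1 match was present in 7.26% of 35116 RefSeq promoter windows of 300 bases (250 before to 50 after the start), and 4 or more in 5 of them, or 0.0142%. Among 15 windows of 9 family genes (MCL1 had none in the table), matches were also present for BBC3 and BID, whose surroundings are shown for comparison with the cluster in BAX (GRCh38.p14, minus strand, chr19:47232882-47232911 for BBC3 and chr22:17774072-17774101 for BID, whose match lay in 2 overlapping windows of alternative starts):
BBC3: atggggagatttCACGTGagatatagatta
BID: ttgtgtcctctcCACGTGgcctggggattc
A match is a description of letters and says nothing of binding in these cells.

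**Figure D1:**
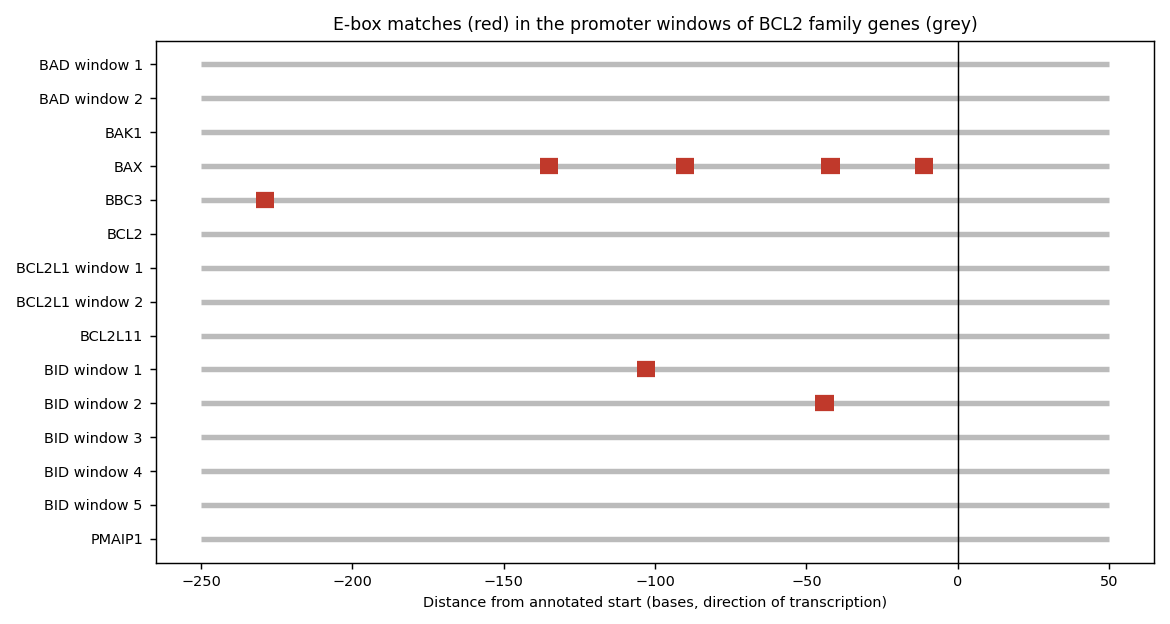
Positions of CACGTG (red) in the RefSeq promoter windows (grey) of 9 BCL2 family genes, plotted as distance in bases from the annotated start, negative before it. BAX holds 4 matches, BBC3 1, and BID 1 that appears in 2 overlapping windows.

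BAX probe ILMN_2321064 read 11.44, 11.59 and 11.52 in siMondoA cells with doxycycline, against 10.38, 10.77 and 10.31 in siControl cells with doxycycline. Every siMondoA array lay above every siControl array, and the level rose 2.05-fold (log2 change 1.03 ± 0.14, SE, adjusted p = 0.00013). The second BAX probe, ILMN_1683300, read 7.10, 7.07 and 7.58 in siMondoA cells with doxycycline, against 6.52, 6.55 and 6.26 in siControl cells with it. Again the groups did not overlap, and it rose 1.75-fold (0.81 ± 0.16, adjusted p = 0.0019). Without doxycycline ILMN_2321064 read 11.27, 11.31 and 10.96 in siMondoA cells, against 10.75, 10.81 and 10.72 in siControl cells, a change of 0.42 ± 0.14 that did not pass (adjusted p = 0.061). The groups were again apart, as they were for ILMN_1683300, which read 7.20, 7.60 and 7.37 in siMondoA cells without doxycycline, against 6.99, 6.82 and 6.83 in siControl cells without it. This probe rose 1.42-fold (0.51 ± 0.16, adjusted p = 0.049), a call that ended on leaving out any 1 of 9 of the 12 arrays (adjusted p = 0.052 to 0.17), all but siMondoA without doxycycline replicate 1 and siMondoA with doxycycline replicates 2 and 3. Doxycycline itself moved neither BAX probe past the threshold. With siMondoA the changes were 0.34 ± 0.14 for ILMN_2321064 and -0.14 ± 0.16 for ILMN_1683300, and with siControl they were -0.27 ± 0.14 and -0.44 ± 0.16. BAX was thus lowest in siControl cells with doxycycline by both probes. The remaining BAX probe, ILMN_2258383, was detected on 0 arrays.

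BAK1, the other effector, had 1 probe with wide spread between replicates. It read 6.41, 7.46 and 6.89 in siMondoA cells with doxycycline, against 6.44, 6.77 and 6.21 in siControl cells with it, and 6.39, 6.78 and 5.86 in siMondoA cells without doxycycline, against 6.29, 5.35 and 5.76 in siControl cells without it. The groups overlapped in both comparisons. The knockdown changes of 0.45 ± 0.30 with doxycycline and 0.55 ± 0.30 without it, and the doxycycline changes of 0.58 ± 0.30 with siMondoA and 0.68 ± 0.30 with siControl, were all positive and none passed (adjusted p = 0.14 to 0.29). The 95% interval of the last ran from 0.016 to 1.34, which reaches past a 2-fold change.

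BCL2L1, which encodes the antiapoptotic BCL-XL and, by splicing, a shorter proapoptotic form, was lowest in siControl cells without doxycycline by both probes. ILMN_1654118 read 9.91, 9.83 and 9.83 in siControl cells with doxycycline, against 9.17, 9.13 and 9.43 in siControl cells without it. The groups were apart and the level rose 1.53-fold with doxycycline (0.61 ± 0.14, adjusted p = 0.0092). ILMN_1742410 read 6.53, 6.40 and 6.55 with doxycycline, against 6.09, 5.85 and 5.27 without it, and rose 1.69-fold (0.76 ± 0.19, adjusted p = 0.012). In siMondoA cells, where neither probe passed, ILMN_1654118 read 9.66, 9.92 and 9.53 with doxycycline, against 9.57, 9.57 and 9.92 without it, a change of 0.018 with a 95% interval from -0.30 to 0.33. For ILMN_1742410 that change was 0.023, from -0.38 to 0.43.

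Set against the siControl cells without doxycycline, MondoA depletion also went with higher BCL2L1. ILMN_1742410 read 6.29, 6.43 and 6.44 in siMondoA cells without doxycycline, above all 3 siControl values just given, and rose 1.57-fold (0.65 ± 0.19, adjusted p = 0.032). That call ended without siControl replicate 2 or 3, or without any 1 of the 3 siMondoA arrays of that comparison (adjusted p = 0.053 to 0.11). ILMN_1654118 changed by 0.45 ± 0.14, with no overlap, and did not pass (adjusted p = 0.053). The doxycycline comparison in siControl cells and the knockdown comparison without doxycycline share the 3 siControl arrays without doxycycline, so they are not independent. With doxycycline present, the knockdown changes were -0.15 ± 0.14 and -0.086 ± 0.19, with overlapping groups.

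MCL1, a short-lived antiapoptotic protein that holds BAK1 in check, was likewise lowest in siControl cells without doxycycline by both probes. ILMN_1803988 read 9.26, 9.32 and 9.25 in siControl cells with doxycycline, against 8.86, 8.79 and 8.93 in siControl cells without it. It rose 1.34-fold with doxycycline, with no overlap (0.42 ± 0.11, adjusted p = 0.019), though not without replicate 2 of either siControl group (adjusted p = 0.056 to 0.069). ILMN_1756806 read 7.43, 7.05 and 6.87 with doxycycline, against 6.66, 6.30 and 6.64 without it, a change of 0.59 ± 0.20 that did not pass (adjusted p = 0.052). Under the MondoA siRNA without doxycycline ILMN_1756806 read 6.98, 7.34 and 7.25, against those same siControl values of 6.66, 6.30 and 6.64, and rose 1.58-fold (0.66 ± 0.20, adjusted p = 0.04). Leaving out any siControl array without doxycycline, siControl with doxycycline replicate 2, or siMondoA without doxycycline replicate 2 or 3 ended this call (adjusted p = 0.052 to 0.14). ILMN_1803988 changed by 0.31 ± 0.11 there (adjusted p = 0.085). With doxycycline the knockdown changes were -0.10 ± 0.11 and -0.24 ± 0.20, and within siMondoA cells the doxycycline changes were 0.0072 ± 0.11 and -0.31 ± 0.20, none of which passed.

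BCL2 itself, the founding antiapoptotic member, was dim, and its probes did not move alike. ILMN_2246956 read 6.37, 6.62 and 6.92 in siMondoA cells with doxycycline, against 5.90, 5.88 and 5.71 in siControl cells with doxycycline. These groups were apart, with a 1.75-fold rise (0.81 ± 0.23, adjusted p = 0.015). In siMondoA cells without doxycycline it read 5.64, 5.96 and 6.10, and the level rose 1.67-fold with doxycycline under the MondoA siRNA (0.74 ± 0.23, adjusted p = 0.036). The comparisons share the siMondoA arrays with doxycycline. Without replicate 3 of siMondoA or of siControl with doxycycline the knockdown change had adjusted p = 0.053 to 0.065, and without siMondoA with doxycycline replicate 2 or 3, or siMondoA without doxycycline replicate 1 or 2, the doxycycline change had 0.069 to 0.13. Neither passed under median scaling (adjusted p = 0.062 and 0.11). ILMN_1801119, detected on all 12 arrays, was between 5.82 and 5.88 in siMondoA cells with doxycycline, against 5.53 to 5.92 in siControl cells with it, a change of 0.089 ± 0.18. ILMN_2363250 was detected on 4 arrays, 1 in each group, and none of its changes passed.

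**Figure D2:**
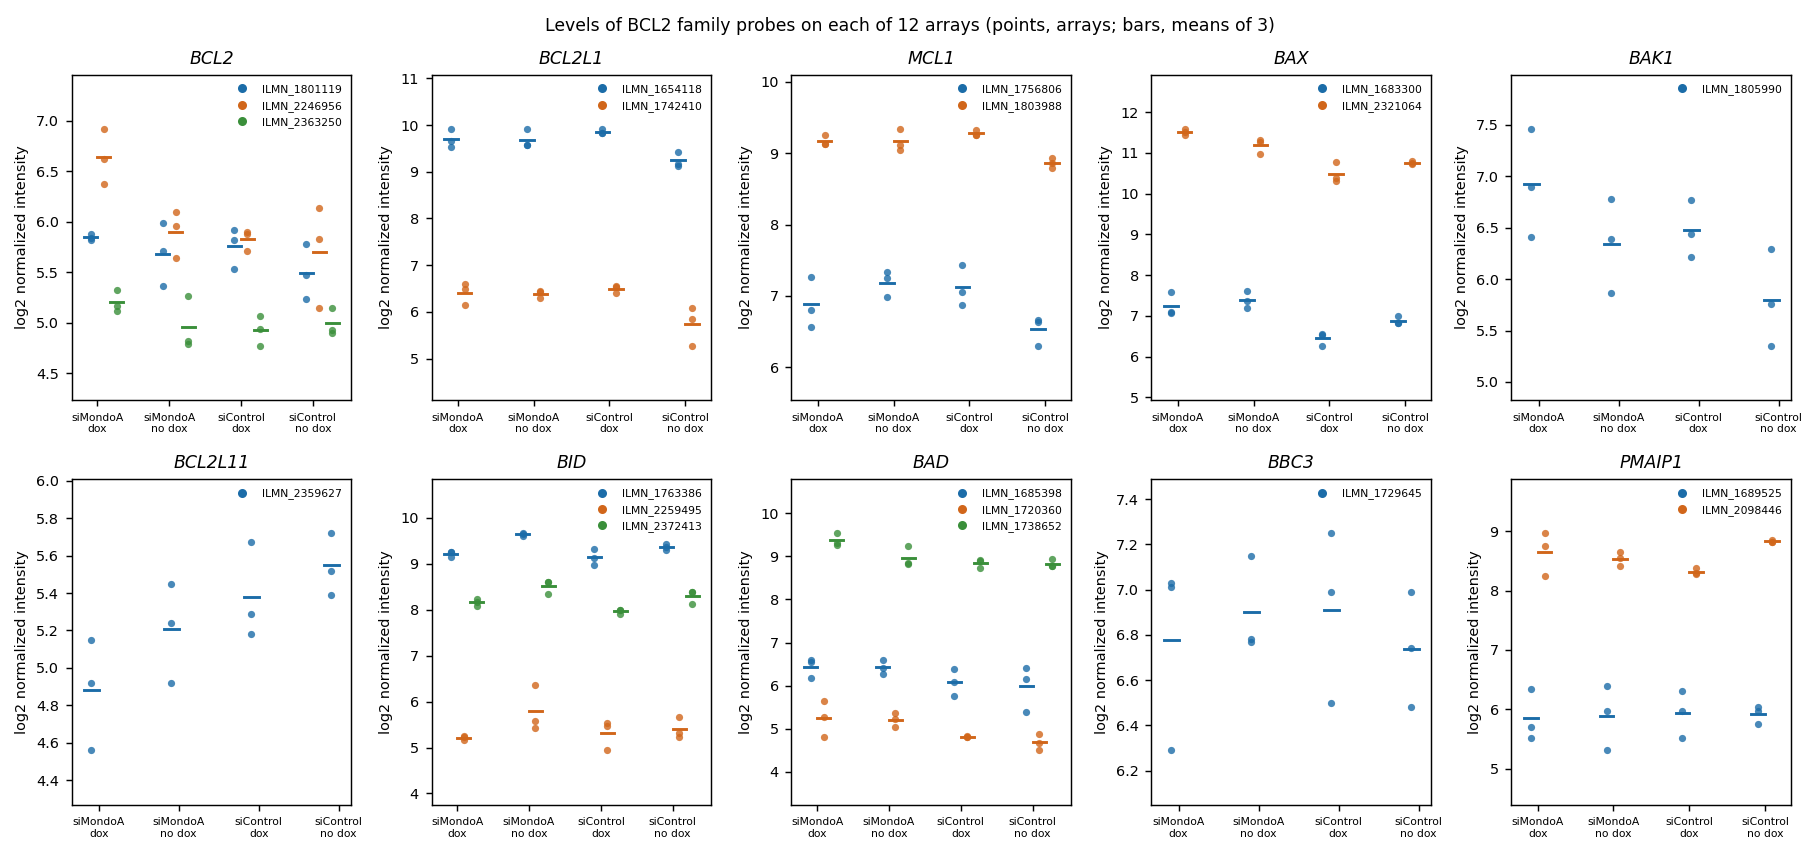
Log2 normalized intensity of the 20 kept probes of 10 BCL2 family genes on each array (points), with the mean of 3 arrays (bars), by siRNA and doxycycline (dox); colours are probes of 1 gene. BAX is higher in both siMondoA groups, and BCL2L1 and MCL1 are lowest in siControl cells without doxycycline.

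Of the BH3-only genes, BAD, whose product binds BCL2 and BCL-XL unless phosphorylated, rose in 1 of its 3 probes. ILMN_1738652 read 9.27, 9.54 and 9.32 in siMondoA cells with doxycycline, against 8.72, 8.89 and 8.92 in siControl cells with it. The groups were apart and the rise was 1.44-fold (0.53 ± 0.14, adjusted p = 0.0099). Without doxycycline it read 9.23, 8.84 and 8.83 in siMondoA cells, against 8.95, 8.77 and 8.77 in siControl cells, which overlapped (0.13 ± 0.14). The other BAD probes had knockdown changes of 0.37 ± 0.24 and 0.43 ± 0.19 with doxycycline and 0.44 ± 0.24 and 0.53 ± 0.19 without it, and none passed. ILMN_1720360, the last of these, was detected on 2 of 3 arrays of either siMondoA group and on 0 of 6 siControl arrays, so it entered the test through siMondoA alone. Its siMondoA level was at least 1.11-fold higher with doxycycline and at least 1.02-fold higher without it (adjusted p = 0.091 and 0.073).

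BID, which caspase-8 cleaves to link death receptors to the mitochondria, was lower with doxycycline under the MondoA siRNA. ILMN_1763386 read 9.16, 9.25 and 9.25 in siMondoA cells with doxycycline, against 9.61, 9.67 and 9.65 in siMondoA cells without it. It fell 1.34-fold with no overlap (-0.43 ± 0.12, adjusted p = 0.02), and did not pass without siMondoA with doxycycline replicate 1 or siMondoA without doxycycline replicate 2 (adjusted p = 0.061 to 0.07). ILMN_2372413 changed by -0.36 ± 0.12 (adjusted p = 0.052) and the dim ILMN_2259495 by -0.57 ± 0.23 (adjusted p = 0.1), the groups not overlapping for either. With siControl the doxycycline changes of the 3 probes were -0.22 ± 0.12, -0.33 ± 0.12 and -0.086 ± 0.23, and none passed. The knockdown left all 3 BID probes short of the threshold, with changes from -0.10 to 0.19 with doxycycline and from 0.22 to 0.38 without it.

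PMAIP1, which encodes NOXA, the BH3-only protein that binds MCL1, fell with doxycycline in siControl cells by its brighter probe. ILMN_2098446 read 8.38, 8.28 and 8.29 in siControl cells with doxycycline, against 8.82, 8.82 and 8.86 in siControl cells without it. The groups were well apart for a 1.43-fold lower level (-0.51 ± 0.16, adjusted p = 0.036), yet leaving out any 1 of these 6 arrays ended the call (adjusted p = 0.068 to 0.093), as did median scaling (0.2). In siMondoA cells it read 8.97, 8.25 and 8.75 with doxycycline, against 8.42, 8.55 and 8.66 without it, with overlap (0.12 ± 0.16). The dimmer probe, ILMN_1689525, had changes within 0.083 of 0 in all 4 pairwise comparisons, with a standard error of 0.28.

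BBC3, which encodes PUMA, an activator of BAX and BAK1, ranged over 0.17 between its group means. It read 6.29, 7.01 and 7.03 in siMondoA cells with doxycycline, against 6.99, 6.50 and 7.25 in siControl cells with it, and 7.15, 6.78 and 6.77 in siMondoA cells without doxycycline, against 6.99, 6.74 and 6.48 in siControl cells without it. Every pair of groups overlapped, and the 4 changes lay between -0.13 and 0.17 with a standard error of 0.23.

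BCL2L11, which encodes BIM, was near background throughout. Its kept probe, ILMN_2359627, was detected on 0 of 3 arrays of siMondoA cells with doxycycline, against 3 of 3 in siControl cells with it, and on 2 of 3 in siMondoA cells without doxycycline, against 3 of 3 in siControl cells without it. With doxycycline the readings were 4.92, 5.15 and 4.56 in siMondoA cells, against 5.18, 5.29 and 5.67 in siControl cells, a level at least 1.15-fold lower in siMondoA cells that did not pass (adjusted p = 0.057). The other BCL2L11 probes fell just outside the detection rule or well outside it, with ILMN_1766541 detected on 1 array and ILMN_1774997 on 0, as was the fourth BCL2 probe, ILMN_1701120. Just inside it were the BCL2 and BAD probes detected on 4 arrays, with median unnormalized intensities of 135.8 and 134.85, against 132.35 for ILMN_1766541.

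Counted by comparison, 4 of the 20 family probes (20%) rose and 0 fell with the MondoA siRNA in doxycycline-treated cells, where 17.0% of all probes rose and 17.9% fell. The 4 were both BAX probes and 1 each of BCL2 and BAD. With median scaling, which put the median change of all probes at -0.036, 3 rose and 1 fell: BCL2 no longer passed (adjusted p = 0.062) and the dim BCL2L11 probe did (-0.54, adjusted p = 0.047). Without doxycycline 3 rose (15%), of BAX, BCL2L1 and MCL1, and 0 fell, where 7.85% of all probes rose and 8.83% fell. The median change of the family probes was 0.14 with doxycycline and 0.30 without it, against 0.024 and 0.016 over all probes. Higher probes made up 47.1% of all calls without doxycycline. With median scaling that share was 73.2%, the median change over all probes was 0.13 and that of the family 0.47.

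**Figure D3:**
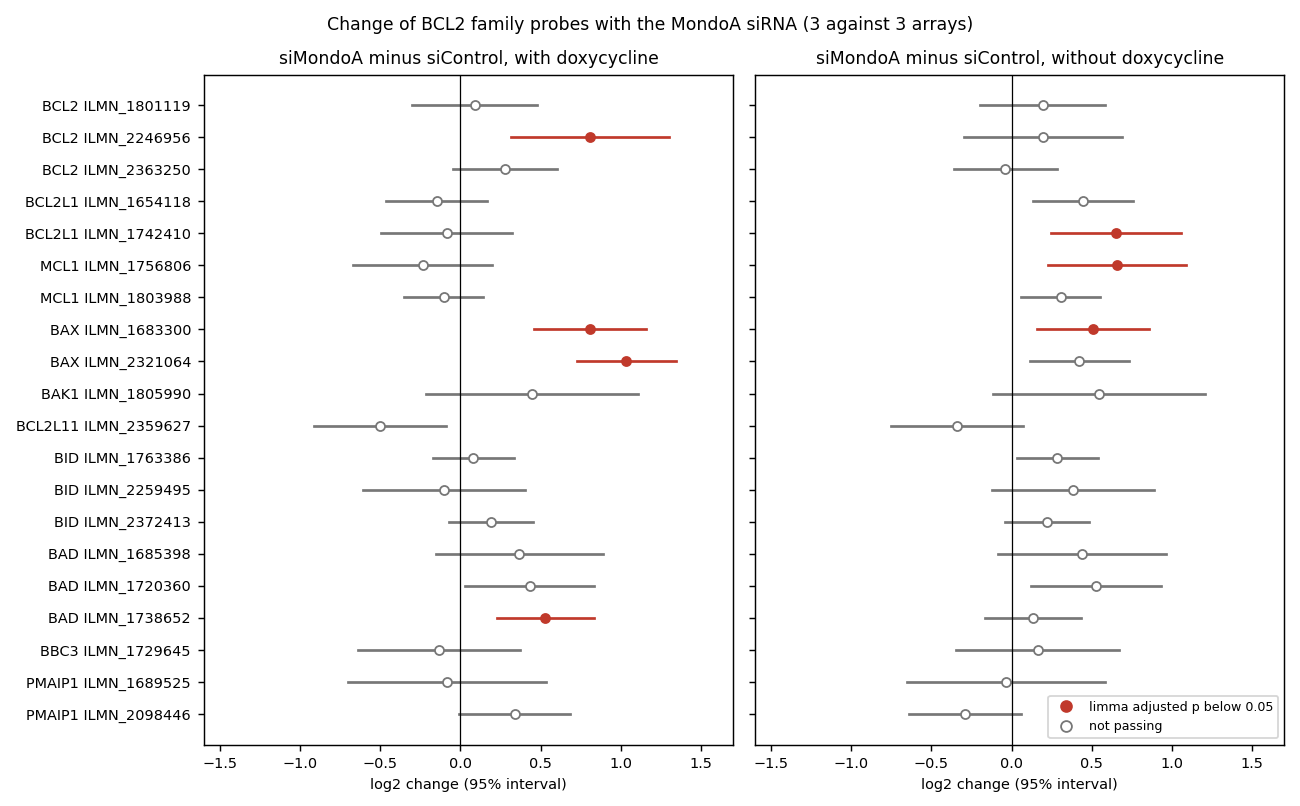
Log2 change of each kept probe (points) with its 95% interval (lines), siMondoA minus siControl, with doxycycline (left) and without it (right), 3 against 3 arrays; red marks limma adjusted p below 0.05. Both BAX probes, 1 BCL2 and 1 BAD probe pass on the left, and 1 probe each of BCL2L1, MCL1 and BAX on the right.

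For doxycycline, 1 family probe rose (BCL2, 5%) and 1 fell (BID, 5%) in siMondoA cells, where 9.93% of all probes rose and 11.2% fell. In siControl cells 3 rose (both BCL2L1 probes and 1 of MCL1, 15%) and 1 fell (PMAIP1, 5%), where 11.4% of all probes rose and 11.0% fell. The shares of family probes thus lay near those of all probes or below them in both. The median change of the family was 0.019 with siMondoA, turning to -0.14 under median scaling, and 0.056 with siControl, against 0.0070 and -0.011 over all probes. Higher probes made up 47.0% of all calls with siMondoA and 50.8% with siControl, and 26.2% and 67.9% under median scaling.

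**Figure D4:**
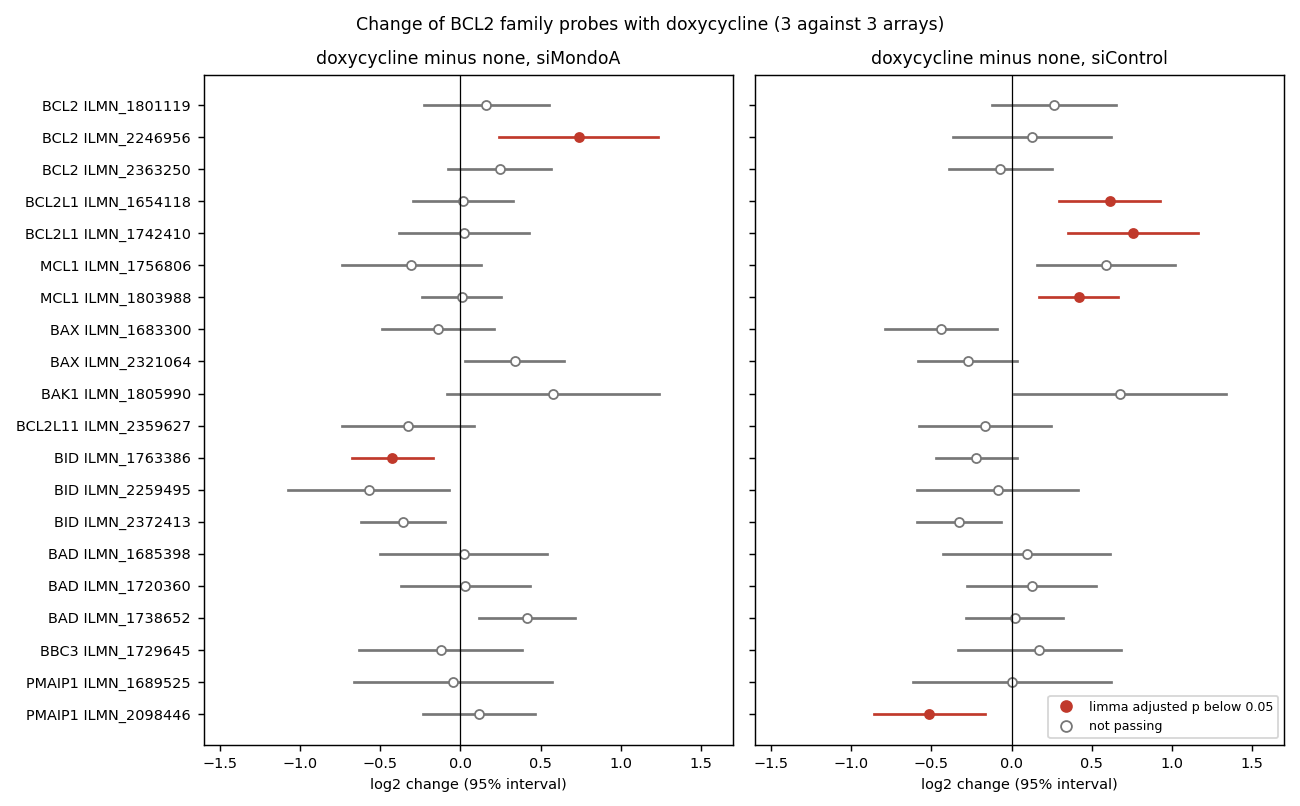
Log2 change of each kept probe (points) with its 95% interval (lines), doxycycline minus no doxycycline, in siMondoA cells (left) and siControl cells (right), 3 against 3 arrays; red marks limma adjusted p below 0.05. The 2 BCL2L1 probes and 1 MCL1 probe pass upward and 1 PMAIP1 probe downward on the right, while 1 BCL2 and 1 BID probe pass on the left.

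Whether the knockdown change depended on doxycycline was tested as an interaction, the change with doxycycline minus that without it. By limma 0 of 20 family probes passed, where 1.93% of all probes had a positive and 3.00% a negative interaction that passed. At an unadjusted p below 0.05 there were 6 of 20, against 21.0% of all probes. They were both probes of BCL2L1 (-0.59 ± 0.20 and -0.73 ± 0.27, adjusted p = 0.12 and 0.13) and of MCL1 (-0.41 ± 0.16 and -0.89 ± 0.28, adjusted p = 0.17 and 0.09), BAX ILMN_2321064 (0.61 ± 0.20, adjusted p = 0.1) and PMAIP1 ILMN_2098446 (0.63 ± 0.23, adjusted p = 0.13). Of all interaction calls 39.2% were positive, and 8.51% under median scaling. Some of these interactions passed under other settings: that of MCL1 ILMN_1756806 under 5 alternatives (adjusted p = 0.032 to 0.047), of BAX ILMN_2321064 under 4 (0.01 to 0.049), of PMAIP1 under 2 (0.019 and 0.029) and of BCL2L1 ILMN_1654118 under 1 (0.019). These include leaving out siMondoA with doxycycline replicate 2 for MCL1 and PMAIP1 and siControl with doxycycline replicate 2 for BAX. As fitted here, a difference between doxycycline states was not shown for any family probe.

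The 3 family probes with the widest range of group means were those of BAK1 (1.12) and BAX (1.03 for ILMN_2321064 and 0.94 for ILMN_1683300). Over the 12 arrays, which all share these 4 groups, the probes most like BAK1 were those of GSTT2, B3GAT3 and CNOT4 (Pearson r = 0.937, 0.928 and 0.914). Those most like BAX ILMN_2321064 belonged to SUCLG1, SSR2 and ASTN2 (r = 0.980, 0.977 and 0.972), and those most like ILMN_1683300 to CCND3, FBXO22 and PRTFDC1 (r = 0.962, 0.960 and 0.951).

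Other members of the extended family, in a list of 13 genes, had 11 kept probes of 8 genes. With the MondoA siRNA and doxycycline 1 of the 11 rose and 3 fell (17.0% and 17.9% of all probes). BOK, a BAX-like effector, rose by 0.87 ± 0.12 (adjusted p = 0.00015). BMF, a BH3-only gene, was at least 1.38-fold lower (adjusted p = 0.0016), its probe being detected on 0 of 3 siMondoA and 3 of 3 siControl arrays and kept through siControl cells alone. BCL2L12 probe ILMN_2396982 fell by 0.50 on the log2 scale (adjusted p = 0.019, and 0.051 to 0.08 without siControl with doxycycline replicate 2 or siMondoA with doxycycline replicate 1 or 3). BCL2L12 probe ILMN_1752953 was at 9.33 ± 0.06 in siMondoA cells, against 9.82 ± 0.15 in siControl cells, and ILMN_1731193 at 5.88 ± 0.44, against 6.32 ± 0.13. Without doxycycline 0 rose and 1 fell (7.85% and 8.83% of all probes), of the mitophagy receptor BNIP3L (-0.42 ± 0.13, adjusted p = 0.041), a call that ended under median scaling (0.5) and on leaving out any siMondoA array without doxycycline, siControl without doxycycline replicate 1 or 2, or replicate 3 of either group with doxycycline (0.052 to 0.13). With doxycycline against none, BOK rose by 1.35 ± 0.12 in siMondoA cells and by 0.65 ± 0.12 in siControl cells. In all, 2 rose and 2 fell with siMondoA (9.93% and 11.2% of all probes), the fallen being BCL2L12 probes (-0.57 ± 0.15, with adjusted p = 0.056 to 0.068 without siMondoA with doxycycline replicate 3 or without doxycycline replicate 1, and -0.51 ± 0.12), and 1 rose and 0 fell with siControl (11.4% and 11.0% of all probes).

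Downstream of the family, 28 probes of 14 of 17 genes for the apoptosome, caspases and their inhibitors were kept. With the MondoA siRNA and doxycycline 5 rose and 8 fell (17.0% and 17.9% of all probes), the furthest being XIAP, a caspase inhibitor (-0.96 ± 0.20, adjusted p = 0.0023), APAF1, the apoptosome scaffold (0.83 ± 0.16, adjusted p = 0.0012, while probe ILMN_2344798, detected on 0 of 3 siMondoA and 3 of 3 siControl arrays, had a measured change of -0.52), and CASP9, the initiator caspase (-0.81 ± 0.18, adjusted p = 0.0042). Without doxycycline 2 rose and 2 fell (7.85% and 8.83% of all probes), with 1 probe of the survivin gene BIRC5 at 0.93 ± 0.13 (adjusted p = 0.00063). The brighter BIRC5 probe read 9.83 ± 0.12 in siMondoA cells, against 9.52 ± 0.12 in siControl cells. DFFA, the inhibitor of the DNA-cutting nuclease, changed by -0.72 ± 0.16 (ILMN_2385220) and -0.53 ± 0.14 (ILMN_1667213). Neither of these falls passed under median scaling (adjusted p = 0.089 and 0.25), nor the smaller one without siControl replicate 1 or siMondoA replicate 3 of that comparison (0.059 to 0.068). The remaining DFFA probe, ILMN_1805696, was at 6.73 ± 0.06 in siMondoA cells, against 6.88 ± 0.12 in siControl cells, and did not pass. With doxycycline against none 0 rose and 9 fell in siMondoA cells (9.93% and 11.2% of all probes), among them BIRC5 (-1.50 ± 0.13 and -0.97 ± 0.13) and a probe of CASP2, an initiator caspase. That probe, ILMN_2296057, was detected on 1 of 3 arrays with doxycycline and 3 of 3 without it, so its fall has no firm size (adjusted p = 0.0081). The other CASP2 probes, detected on all 12 arrays, were at 10.61 ± 0.12 and 7.93 ± 0.06 with doxycycline, against 10.86 ± 0.06 and 8.50 ± 0.03 without it. In siControl cells 0 rose and 7 fell (11.4% and 11.0% of all probes), among them DFFA (-0.72 ± 0.16), the cytochrome c gene CYCS (-0.64 ± 0.16) and the nuclease gene DFFB (-0.60 ± 0.15). Under median scaling none of these siControl falls of DFFA, CYCS and DFFB passed (adjusted p = 0.05, 0.11 and 0.097), nor did 2 of them without siControl with doxycycline replicate 1 or 3 for CYCS (0.056 and 0.057) and siControl without doxycycline replicate 1 for DFFB (0.052).

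Upstream of BID, the death receptor list had 13 kept probes of 9 of 11 genes. With the MondoA siRNA and doxycycline 3 rose and 3 fell (17.0% and 17.9% of all probes). TNFRSF21 (death receptor 6) fell by 1.38 (adjusted p = 1.3e-05). TNFRSF10B, the TRAIL receptor DR5, rose by 1.14 ± 0.15 by probe ILMN_2331010 (adjusted p = 0.00012). Its brightest probe, ILMN_1699265, was at 11.51 ± 0.05 in siMondoA cells, against 10.94 ± 0.17 in siControl cells. FAS, detected on 3 of 3 siMondoA arrays and 0 of 3 siControl arrays, was at least 1.48-fold higher (adjusted p = 0.0017). Without doxycycline 1 rose, TNFRSF10B probe ILMN_2331010 (0.49 ± 0.15, adjusted p = 0.048), and 0 fell (7.85% and 8.83% of all probes). That call ended on leaving out any 1 of 9 arrays (0.059 to 0.18), all but siControl without doxycycline replicate 3 and siMondoA with doxycycline replicates 2 and 3. The brightest TNFRSF10B probe, ILMN_1699265, was at 10.98 ± 0.13 in siMondoA cells, against 10.81 ± 0.16 in siControl cells. The dim ILMN_1812915 was at 5.95 ± 0.08, against 5.22 ± 0.34, and neither passed. With doxycycline against none 3 rose and 0 fell in siMondoA cells (9.93% and 11.2% of all probes), TNFRSF10B (0.85 ± 0.15 and 0.52 ± 0.13) and the adaptor TRADD (0.69 ± 0.14). Under median scaling TRADD and the second TNFRSF10B probe did not pass (adjusted p = 0.067 and 0.1), nor did that TNFRSF10B probe without siMondoA without doxycycline replicate 1 (0.053). In siControl cells 5 rose and 0 fell (11.4% and 11.0% of all probes), led by CFLAR, the caspase-8 inhibitor FLIP (1.17 ± 0.19), TRADD (1.05 ± 0.17) and TNFRSF21 (0.96 ± 0.14).

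Of 9 transcription factors known to act on family genes, 7 had 11 kept probes. With the MondoA siRNA and doxycycline 1 rose and 3 fell (17.0% and 17.9% of all probes), with both probes of FOXO3, a known activator of BCL2L11 and BBC3, at -0.84 ± 0.14 and -0.80 ± 0.12 (adjusted p = 0.00052 and 0.00028) and FOXO1 at 0.65 ± 0.17, which did not pass under median scaling (0.12). Without doxycycline 3 rose and 0 fell (7.85% and 8.83% of all probes), with MYC at 1.78 ± 0.14 and, by a probe detected on 0 siControl arrays, at least 2.31-fold higher, and JUN at 0.39 ± 0.12, a call that ended without any siMondoA array of that comparison or siControl replicate 2 or 3 (0.061 to 0.12). With doxycycline against none 5 rose and 2 fell in siMondoA cells (9.93% and 11.2% of all probes), FOXO1 by 1.07 ± 0.17 and MYC by 1.00 ± 0.14 and 1.01 ± 0.23, and 4 rose and 2 fell in siControl cells (11.4% and 11.0% of all probes), MYC by 2.95 ± 0.14 and JUN by 1.44 ± 0.12. MYC, which encodes c-Myc, is a different gene from the transgene.

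Among genes for partners and for turnover of family proteins, 20 probes of 12 of 14 genes were kept. With the MondoA siRNA and doxycycline 5 rose and 6 fell (17.0% and 17.9% of all probes). BTRC, a ubiquitin ligase subunit, rose by 1.02 ± 0.15 (adjusted p = 0.0002). Of FBXW7, a ligase subunit that targets MCL1, probe ILMN_1754279 rose by 0.68 ± 0.18 (adjusted p = 0.079 under median scaling). FBXW7 probe ILMN_1668634, detected on all 12 arrays, went the other way, at 6.51 ± 0.57 in siMondoA cells, against 6.96 ± 0.15 in siControl cells. The dim ILMN_1655906 was at 5.71 ± 0.32, against 5.44 ± 0.15. The 14-3-3 gene YWHAZ, whose product binds phosphorylated BAD, was at least 1.33-fold lower by a probe detected on 0 of these siMondoA arrays (adjusted p = 0.018). That call ended without replicate 2 of either group (0.058 to 0.059). The bright YWHAZ probe ILMN_1801928, detected on all 12 arrays, was at 11.69 ± 0.15 in siMondoA cells, against 12.24 ± 0.09 in siControl cells. Without doxycycline BTRC was the 1 that rose (measured change 1.26 ± 0.15, adjusted p = 0.00015), and 0 fell (7.85% and 8.83% of all probes). Its probe was detected on 3 of 3 siMondoA arrays and 1 of 3 siControl arrays there, so its rise has no firm size. BTRC probe ILMN_1689438 was detected on 0 arrays. With doxycycline against none 1 rose and 4 fell in siMondoA cells (9.93% and 11.2% of all probes). The probe that rose was FBXW7 ILMN_1754279, by 0.85 ± 0.18. FBXW7 probe ILMN_1668634 was at 6.51 ± 0.57 with doxycycline, against 6.78 ± 0.28 without it, and ILMN_1655906 at 5.71 ± 0.32, against 5.31 ± 0.12. The mitochondrial channel gene VDAC1 changed by -0.75 ± 0.12. The dim YWHAZ probe, ILMN_1669286, detected on 0 of 3 arrays with doxycycline, was at least 1.65-fold lower. The bright YWHAZ probe, ILMN_1801928, was at 11.69 ± 0.15 with doxycycline, against 12.23 ± 0.06 without it. In siControl cells 0 rose and 2 fell (11.4% and 11.0% of all probes). They were probe ILMN_3251526 of USP13, a deubiquitinase (-0.58 ± 0.13, adjusted p = 0.073 under median scaling), and VDAC1 (-0.52 ± 0.12). USP13 probe ILMN_1708059 was at 7.82 ± 0.12 with doxycycline, against 7.98 ± 0.09 without it, and did not pass.

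Of the markers of other cell types, CD68, a lysosomal macrophage marker, moved with doxycycline in siControl cells beside BCL2L1 and MCL1, with 2 of 3 probes higher, and with the MondoA siRNA without doxycycline, with 2 higher and 1 lower. Sums in this paragraph are of unnormalized intensities over all probes of a list, kept or not. They therefore include background and the brightness of each array (median signal 116.8 to 143.2). The blood list had 1 of 4 genes kept, while PTPRC and CD3E were detected on 0 of 12 arrays. Its sum was 2329.5 to 2580.2 in siControl cells with doxycycline, against 1683.6 to 2153.4 without it, and 1906.0 to 2419.0 in siMondoA cells without doxycycline. Of the 9 kept probes of the 6 mesenchymal genes, 4 were higher and 0 lower in each of these comparisons. The sum over all mesenchymal probes was 21570.0 to 25985.7 in siControl cells with doxycycline, against 17035.9 to 20072.6 without it, and 23209.6 to 33107.2 in siMondoA cells without doxycycline. The part of these markers in the BCL2L1 and MCL1 results was not tested. Beside BAX, with the MondoA siRNA and doxycycline, 1 of 2 probes of the epithelial list rose, of EPCAM, and the 1 endothelial probe, of PECAM1, fell. EPCAM probe ILMN_3249032, which rose, was detected on 3 of 3 siMondoA arrays and 1 of 3 siControl arrays. PECAM1 was detected on 0 of 3 and 2 of 3, so neither change has a firm size. EPCAM probe ILMN_2160210 went the other way, at 5.12 ± 0.31 in siMondoA cells, against 5.30 ± 0.09 in siControl cells. The epithelial sum was 606.5 to 643.4 in siMondoA cells with doxycycline, against 633.3 to 665.0 in siControl cells with it, and the endothelial sum 302.0 to 351.1, against 352.6 to 395.3, with CDH5, CDH1 and KRT5 detected on 0 arrays. Of the mesenchymal probes 4 were higher and 1 lower there, with sums of 20683.3 to 24359.0 in siMondoA cells, against 21570.0 to 25985.7 in siControl cells, and of the adrenergic probes 1 was higher and 1 lower, with sums of 1948.0 to 2247.2, against 1885.2 to 2060.2. Their part in the BAX result was not tested.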

How the data were processed

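Tet21N RNA was hybridised to 12 Illumina bead arrays, in 4 groups of 3 by the labels. Per the file headers the authors deposited a linear probe intensity and a detection score per array; by their values the intensities were neither background-subtracted nor normalized, and the deposited score, a fraction, was read as 1 minus the detection p-value. The authors' deposited log2 values equalled log2 of the quantile-normalized intensities (largest difference 5.33e-14). The submitters' processing notes name lumi, with no version or role.

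Of 47313 probes with values, 30108 had 1 gene symbol by the platform annotation, 8 had several and 17197 had none, and 30069 matched RefSeq. Intensities went through neqc (limma 3.58.1, R 4.3.3, offset 16, negative controls inferred from detection p-values). Probes detected at p below 0.05 on 3 or more arrays entered a 4-group model (lmFit, eBayes), with Benjamini-Hochberg adjustment over 22188 probes. The number of arrays limits the precision (median SE 0.17). Where no array of a group detected a probe, its level there is bounded: "at least" compares the brighter group's mean with, on each dim array, the lowest signal of any detected probe or the probe's signal, whichever was higher. Alternatives changed background correction, scaling, offset, filter, probe choice, block, samples, weights and replicates. The fit was tested on simulated data. No slide is named in the labels or headers, so none was fitted as a block.

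The members and lists were chosen with earlier results of these data known. Every family probe is named; of other lists, up to 3 called probes per comparison with the largest change; and for the 3 family probes of widest range, the 3 most correlated probes of other genes. Promoter sequences are RefSeq's (GRCh38.p14).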

Additional observations from a re-analysis of the deposited data

Results flagged for a closer look

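For 9 genes other than the 10 family genes described, on 10 probes, and for the MondoA target TXNIP, the knockdown change differed between doxycycline states by the interaction term (limma adjusted p below 0.05), given as the change with doxycycline minus that without it. The interaction was positive for FAS (1.20 ± 0.30, adjusted p = 0.041) and BOK (0.70 ± 0.17, adjusted p = 0.038). It was negative for MYC (-1.95 ± 0.20 and, by its second probe, -1.47 ± 0.33), 1 BIRC5 probe (-1.14 ± 0.19, while the brighter BIRC5 probe did not pass), TXNIP (-1.07 ± 0.17), JUN (-1.04 ± 0.17), TNFRSF21 (-0.97 ± 0.20), 1 APAF1 probe (-0.86 ± 0.19), TNFRSF1A (-0.71 ± 0.16) and 1 YWHAZ probe (-0.63 ± 0.16). For 3 of these a group with 0 of 3 arrays detected enters the difference, so the value has no firm size: siControl with doxycycline for FAS, siControl without it for the second MYC probe and siMondoA with doxycycline for APAF1. Leaving out 1 array ended the FAS call for 9 of 12 arrays (adjusted p = 0.054 to 0.09, all but the siMondoA arrays with doxycycline), the BOK call for 9 (0.058 to 0.091, all but replicate 2 of siMondoA with doxycycline and of both siControl groups) and the YWHAZ call for 11 (0.054 to 0.096, all but siMondoA with doxycycline replicate 2). It ended the TNFRSF1A call for 7 (0.055 to 0.072), that of the second MYC probe for 5 (0.051 to 0.061) and the APAF1 call for 4 (0.05 to 0.056). The APAF1 value was -0.28 with the deposited values and -0.43 with offset 50 and passed under neither (0.11 and 0.073). Median scaling ended those of BOK, YWHAZ and TNFRSF1A (0.29, 0.13 and 0.058).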

How the results depend on the processing

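Of 13 family values past the threshold 5 stayed past it under every alternative run: both BAX probes and BAD ILMN_1738652 for the knockdown with doxycycline, and both BCL2L1 probes for doxycycline in siControl cells. Of 87 not past it 18 passed under at least 1 alternative, and 0 called values changed sign among family probes and the other named genes. For the knockdown without doxycycline, where 3 family probes were called, 7 were with the deposited log2 values or median scaling, 5 with offset 50, 6 with probes detected on all 12 arrays, 1 with only the 6 arrays compared and 0 without the detection filter. For doxycycline in siMondoA cells, with 2 called, the deposited values gave 5, offset 50 gave 4 and no filter gave 1, and in siControl cells, with 4 called, probes detected on all arrays gave 7. For the interaction, with 0 called, the deposited values gave 4, offset 50 and probes detected on all arrays 2 each, and median scaling 1. Over all probes its 1094 calls became 2284, 1804 and 1669 with the deposited values, offset 50 and probes detected on all arrays. With 1 array left out, family calls ranged from 3 to 6 (knockdown with doxycycline), 0 to 4 (without it), 1 to 2 (doxycycline with siMondoA), 2 to 6 (with siControl) and 0 to 2 (interaction), and interaction calls over all probes from 621 to 1332. The cause of these shifts was not tested. No pairing of the samples by replicate number was seen. Deviations of the 18 same-numbered pairs correlated between -0.10 and 0.074, and 3 of 12 arrays correlated best with their own number. Such correlations cannot exclude a pairing. With the replicate number as a block 5, 3, 2, 4 and 0 family probes were called in the 5 comparisons in the order above. Of the 3 without doxycycline the block ended BAX ILMN_1683300 (adjusted p = 0.077) and MCL1 ILMN_1756806 (0.058), while BAX ILMN_2321064 (0.048) and BAD ILMN_1720360 (0.039) passed. It also ended the interaction calls of FAS (0.052), TNFRSF1A (0.054), BOK (0.059) and YWHAZ (0.072) and the knockdown calls without doxycycline of JUN (0.061) and TNFRSF10B (0.062). No slide block was run, since no slide is named. Dim probes of BCL2, BCL2L11 and BAD limit what can be said of those genes.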
